A study of Mus musculus with 4 samples.

Results

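The stability of circadian clock proteins is set after translation by kinases, ubiquitin ligases and deubiquitinases, and 8 mouse genes of this kind are described here: the kinase genes Csnk1d, Csnk1e, Csnk2a1 and Gsk3b, the F-box genes Fbxl21, Btrc and Fbxw11, and the deubiquitinase gene Usp2. They were taken by name from a deposited count table, which holds all 8 among its 23420 genes. The libraries came from pancreatic β-cells sorted out of mice that carried DTA and that had received doxycycline for 10 days, in both groups. DTA is the toxin chain used to ablate β-cells. How far the ablation went in either group cannot be read from these libraries. There were 2 libraries labelled Bmal1KO and 2 labelled Bmal1Het (genotype Bmal1+/-), with no group free of doxycycline or of the DTA allele. The promoters that drive DTA and the Bmal1 deletion, the age of the mice, the hour of collection and the number of animals behind a library are missing from the labels used here. The p-values therefore measure spread among libraries, which may not equal the spread among animals.

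In the mammalian clock, BMAL1 and CLOCK drive transcription of the Period and Cryptochrome genes, whose proteins then repress BMAL1 and CLOCK until they are degraded. Casein kinase 1δ and 1ε phosphorylate PER proteins, and the ubiquitin ligases that carry β-TrCP1 (Btrc) or β-TrCP2 (Fbxw11) then mark PER for the proteasome. FBXL21 is an F-box protein that binds CRY proteins and alters their stability, while USP2 removes ubiquitin from clock proteins. These enzymes also serve other pathways, among them Wnt, NF-κB and insulin signalling, so their RNA is not specific to the clock.

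Totals ran from 31056116 to 38020488 counts per library. RNA of the targeted gene, Arntl (Bmal1), stood at 75.8 and 65.6 CPM (the usual depth-scaled counts, here with TMM-adjusted library sizes) in the libraries labelled Bmal1KO, against 23.0 and 14.98 CPM in those labelled Bmal1Het. That is opposite to what the labels would give for a loss of the RNA, and gene-level counts do not show whether a deleted part is missing, so the groups are named by their labels and every direction below is that of the KO-labelled libraries relative to the Het-labelled ones. The 7 β-cell markers summed to 272700 and 233700 CPM in KO-labelled libraries and 214800 and 273800 CPM in Het-labelled libraries, sums carried by Ins1, Ins2 and Iapp. Of these 7, 5 had a lower level in the KO-labelled libraries and Ucn3, a gene of mature β-cells, fell, at 52.95 and 89.1 CPM in KO-labelled and 269.8 and 314 CPM in Het-labelled libraries. Among markers of other cells, stromal markers summed to 129 and 362 CPM in KO-labelled and 57.7 and 17.3 CPM in Het-labelled libraries (6 of 6 tested higher, 3 past the threshold), acinar markers to 141 and 51.1 against 38.2 and 9.29 CPM (6 of 6 higher, Amy2a5 at 0 throughout), endothelial markers to 16.7 and 4.93 against 1.39 and 2.42 CPM (3 of 3 higher) and immune markers to 90.4 and 391 against 82.9 and 80.7 CPM (5 of 5 higher). The PP-cell marker Ppy was at 1974 and 4008 CPM in KO-labelled and 1319 and 1046 CPM in Het-labelled libraries, α-cell markers summed to 2884 and 4502 against 2667 and 3289 CPM (3 of 4 higher, 1 past the threshold) and δ-cell markers to 547 and 1418 against 962 and 1053 CPM (0 of 2 higher). Duct markers summed lower, to 518 and 507 CPM in KO-labelled and 686 and 775 CPM in Het-labelled libraries, although 4 of 5 had a higher fitted level. The lower sum came from Krt7, at 367.7 and 397.5 CPM in KO-labelled and 567 and 662.9 CPM in Het-labelled libraries. Sex-linked RNA, which differs between male and female cells, also differed between the groups. Xist was lower in both KO-labelled libraries, at 8.68 and 38.8 CPM against 72.3 and 67.5 CPM in Het-labelled libraries. The Y-linked Ddx3y was higher in both, at 89.15 and 23.76 against 20.5 and 12.11 CPM. The Y-linked Eif2s3y, at 136 and 32.3 against 36.9 and 20.2 CPM, Kdm5d and Uty were highest in KO-labelled replicate 1 and overlapped between the groups. The share of male and female material therefore differed between libraries, and its part in the results below was not tested. In sorted cells, a change in the share of a cell type and a change in RNA per cell cannot be told apart.

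None of the 8 genes passed the threshold (adjusted p under 0.05, the quasi-likelihood test of edgeR, adjusted by Benjamini-Hochberg over 14649 genes), and their levels were mostly close between the groups. The background for that count is 2.54% of all genes tested (1.20% higher and 1.34% lower), so 0 of 8 is near it. Csnk1e alone had an unadjusted p under 0.05, as did 16.9% of all genes tested, and DESeq2, limma-voom and limma-trend called 0 of the 8 as well. The median log2 fold change was 0.01 over the 8 genes and 0.02 over all genes tested, and the median size of the change without its sign was 0.11 over the 8 genes and 0.29 over all. In 7 of the 8 genes, all but Fbxl21, the 95% interval lay within a 2-fold change in either direction, as it did in 51.8% of all genes tested. The groups did not overlap for 3 of the 8 (Csnk1e higher, Fbxl21 and Fbxw11 lower), against 49.0% of all genes tested (25.3% higher and 23.8% lower).

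**Figure D1:**
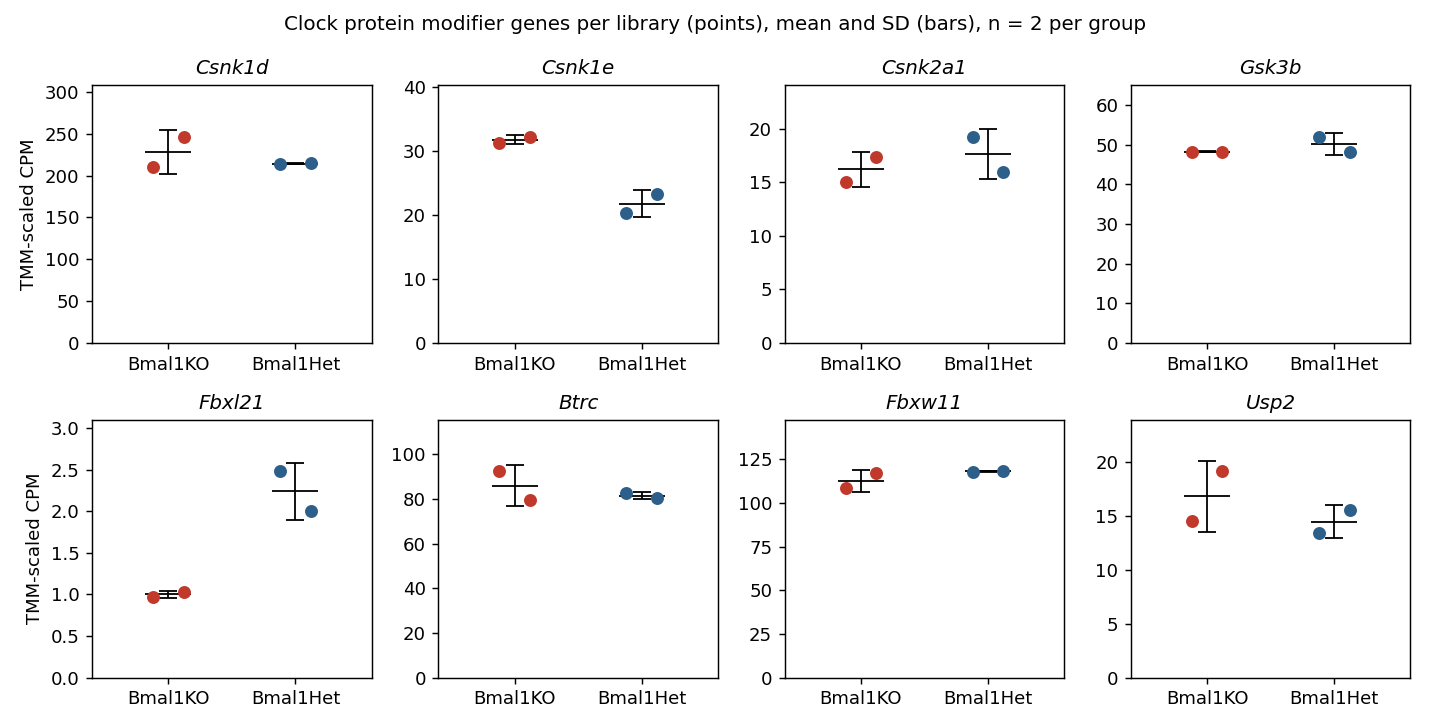
TMM-scaled CPM of each of the 8 genes (vertical axes, each from 0) in the libraries labelled Bmal1KO (left of each panel, red) and Bmal1Het (right, blue); points are libraries, bars the mean and SD of 2. Csnk1e lies higher and Fbxl21 lower in both KO-labelled libraries, while the other panels differ by little or overlap.

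Per length, the genes spanned an 83.95-fold range (TMM-scaled CPM per kb of merged exon, mean of the 4 libraries). Csnk1d was the most abundant at 59.2 CPM per kb, followed by Fbxw11 at 27.7, Btrc at 13.9, Gsk3b at 5.90, Csnk1e at 5.38, Csnk2a1 at 4.03, Usp2 at 3.39 and Fbxl21 at 0.705 CPM per kb. The libraries of Csnk1d, Fbxw11 and Btrc did not overlap with those of the next gene in this order, nor did those of Usp2 with Fbxl21. Gsk3b, Csnk1e, Csnk2a1 and Usp2 each overlapped with their neighbour, and the order among them is not resolved. By plain CPM, Csnk1d exceeded 96.7% and Fbxl21 15.6% of all genes tested.

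**Figure D2:**
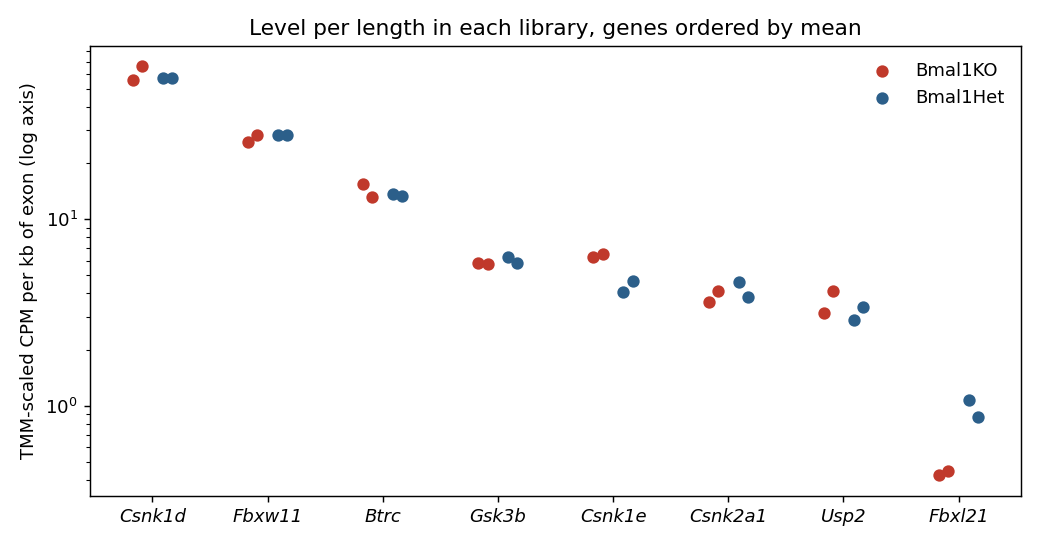
Level of each gene per kb of exon (log axis) in the libraries labelled Bmal1KO (red) and Bmal1Het (blue), ordered by the mean. Csnk1d, at 56.1 to 66.0 CPM per kb, stands above all others and Fbxl21, at 0.424 to 1.08, below them.

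Among the kinase genes, Csnk1e was the one whose groups separated. Csnk1e (chromosome 15, 79417856 to 79455566, minus strand, GRCm38), the gene altered in the short-period tau hamster, had 1027 and 1034 counts, or 31.3 and 32.3 CPM, in KO-labelled libraries and 787 and 768 counts, or 20.3 and 23.2 CPM, in Het-labelled libraries. Both KO-labelled libraries lay above both Het-labelled ones. The log2 fold change was 0.54 (SE 0.19, 95% interval 0.10 to 0.99), a fold of 1.46 that did not pass (edgeR unadjusted p = 0.0239, adjusted p = 0.211). It ran from 0.45 to 0.63 when each library was left out in turn, with adjusted p-values of 0.230 to 0.717. Of all genes tested, 30% had a larger change in either direction. The stromal, acinar, endothelial and immune marker sums given above were also higher in the KO-labelled libraries, the immune sum mainly in replicate 2. The duct sum was lower. The part of these markers in the Csnk1e difference was not tested. Exons of Csnk1e share 260 bases with an antisense gene model, and the libraries do not mark strand.

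Its paralog Csnk1d (chromosome 11, 120961749 to 120991330, minus strand), which encodes casein kinase 1δ, was at 209.6 and 247 CPM in KO-labelled libraries and 214 and 215 CPM in Het-labelled libraries. The Het-labelled values fall inside the KO-labelled range. The log2 fold change was 0.09 (SE 0.14, 95% interval -0.25 to 0.43, edgeR adjusted p = 0.820), and it was -0.03 without KO-labelled replicate 2. Casein kinase 1δ RNA made up 89.9% and 91% of the summed Csnk1d and Csnk1e level per kb in KO-labelled libraries and 93.3% and 92.5% in Het-labelled libraries. The sum itself was 62.4 and 72.4 CPM per kb in KO-labelled libraries and 61.3 and 62.1 CPM per kb in Het-labelled libraries, so the higher Csnk1e level was a small part of the pair's total.

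Csnk2a1 (chromosome 2, 152226839 to 152281852, plus strand) encodes a catalytic subunit of casein kinase 2, a kinase of BMAL1 and PER2. It was at 15.1 and 17.4 CPM in KO-labelled libraries and 19.3 and 16.0 CPM in Het-labelled libraries, which overlap (log2 fold change -0.12, SE 0.24, 95% interval -0.68 to 0.44, edgeR adjusted p = 0.854). Without Het-labelled replicate 1 the log2 fold change was 0.01. GENCODE names 2 processed pseudogenes of Csnk2a1, and the count table holds 0 of them. How reads with several matches were treated is not given, so the level of Csnk2a1 is uncertain to that extent. Gsk3b (chromosome 16, 38089001 to 38246084, plus strand), whose kinase acts on PER2, CRY2 and REV-ERBα and in insulin and Wnt signalling, was at 48.3 and 48.2 CPM in KO-labelled libraries and 52.1 and 48.3 CPM in Het-labelled libraries. KO-labelled replicate 1 and Het-labelled replicate 2 were level, and the log2 fold change was -0.06 (SE 0.16, 95% interval -0.43 to 0.32, edgeR adjusted p = 0.910).

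Fbxl21 had the largest difference of the 8 genes and the fewest reads. Fbxl21 (chromosome 13, 56522472 to 56537898, plus strand) was counted 32 and 33 times in KO-labelled libraries and 96 and 66 times in Het-labelled libraries, or at 0.974 and 1.03 CPM against 2.48 and 1.998 CPM. Both KO-labelled libraries lay below both Het-labelled ones. The log2 fold change was -1.16 (SE 0.65, 95% interval -2.68 to 0.37), which did not pass (edgeR unadjusted p = 0.117, adjusted p = 0.434), and it ran from -1.32 to -0.998 when each library was left out in turn. The summed counts, 65 in KO-labelled and 162 in Het-labelled libraries, gave a scaled ratio of 0.444 with a 95% exact binomial interval of 0.328 to 0.595. That interval covers counting error only, and the wider interval of the fit includes the spread between libraries assumed for a gene this scarce. Of all genes tested, 12.9% had a larger change in either direction. Stromal, acinar, endothelial and immune markers summed higher, and Ucn3 was lower, in the same KO-labelled libraries. Duct markers summed lower through Krt7, while 4 of 5 had a higher fitted level. The part of these markers in the Fbxl21 difference was not tested.

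The β-TrCP genes were level. Btrc (chromosome 19, 45363734 to 45530013, plus strand) was at 92.3 and 79.5 CPM in KO-labelled libraries and 82.5 and 80.4 CPM in Het-labelled libraries (log2 fold change 0.08, SE 0.15, 95% interval -0.28 to 0.43, edgeR adjusted p = 0.855; -0.06 without KO-labelled replicate 1). The Het-labelled values lie between the KO-labelled ones. Fbxw11 (chromosome 11, 32642724 to 32746816, plus strand) was at 108 and 117 CPM in KO-labelled libraries and 118 and 118 CPM in Het-labelled libraries (log2 fold change -0.07, SE 0.14, 95% interval -0.39 to 0.26, edgeR adjusted p = 0.871). Its groups did not overlap, but KO-labelled replicate 2 lay much nearer to the Het-labelled libraries than to KO-labelled replicate 1. Summed per kb, the β-TrCP pair was at 41.4 and 41.4 CPM in KO-labelled libraries and 42.0 and 41.7 CPM in Het-labelled libraries, and Btrc made up 37.1% and 32% of it in KO-labelled libraries and 32.6% and 32.1% in Het-labelled libraries.

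Usp2 (chromosome 9, 44067021 to 44095627, plus strand), whose RNA is rhythmic in several mouse tissues, had 476 and 612 counts in KO-labelled libraries and 517 and 514 counts in Het-labelled libraries. Scaled, it was at 14.5 and 19.1 CPM in KO-labelled libraries and 13.4 and 15.6 CPM in Het-labelled libraries, which overlap. The log2 fold change was 0.22 (SE 0.26, 95% interval -0.39 to 0.83, edgeR adjusted p = 0.740), and without KO-labelled replicate 2 it was 0.001. The KO-labelled replicates differed by -0.40 on the log2 scale (replicate 1 minus replicate 2), a larger gap than that between the groups. Its exons share 200 bases with gene models on the other strand, one of them protein-coding.

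**Figure D3:**
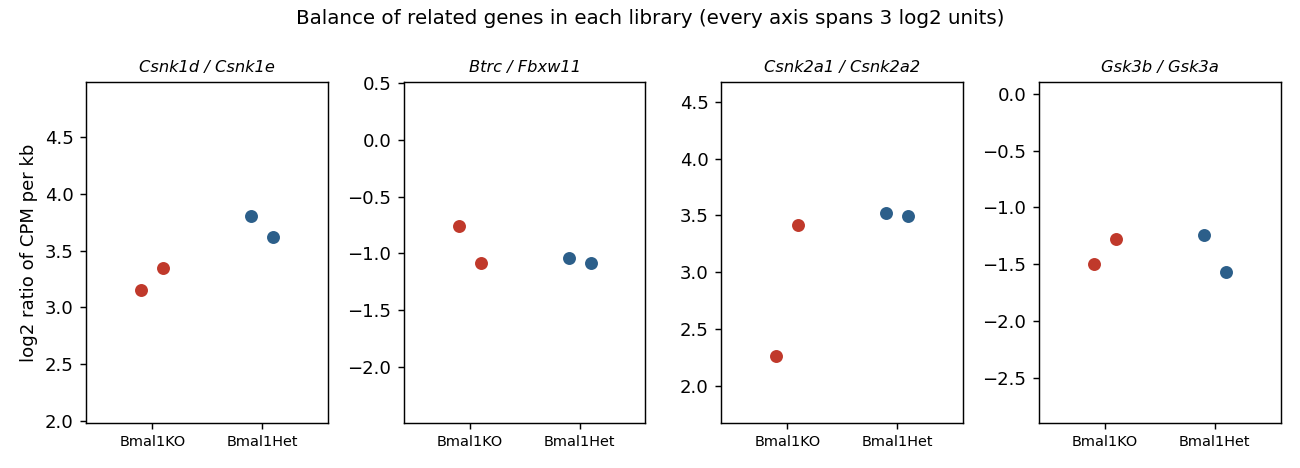
Log2 ratio of related genes per kb of exon in each library labelled Bmal1KO (red, left) or Bmal1Het (blue, right), all axes spanning 3 log2 units. Gsk3b over Gsk3a differs least, by 0.01; Csnk1d over Csnk1e is lower in both KO-labelled libraries, and Csnk2a1 over Csnk2a2 is low in KO-labelled replicate 1 alone.

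Of the 4 ratios of related genes given here, Csnk1d to Csnk1e and Csnk2a1 to Csnk2a2 had groups that did not overlap. Groups also did not overlap for 49.0% of all single genes tested, so this does not set these pairs apart. The share among ratios of other genes was not computed. Csnk1d to Csnk1e was 8.93 and 10.2 in KO-labelled libraries and 14.0 and 12.3 in Het-labelled libraries, a log2 difference of -0.46 with no overlap (exact permutation p = 0.333, the smallest possible). Csnk2a1 to Csnk2a2, the genes of the alternative catalytic subunits of casein kinase 2, was 4.79 and 10.7 in KO-labelled libraries and 11.5 and 11.3 in Het-labelled libraries (-0.67), and the difference came mostly from replicate 1, where Csnk2a2 was at 6.52 CPM against 3.37 CPM in KO-labelled replicate 2 and 3.49 and 2.94 CPM in Het-labelled libraries. Gsk3b to Gsk3a was 0.353 and 0.412 in KO-labelled libraries and 0.423 and 0.337 in Het-labelled libraries, which overlap. Btrc to Fbxw11 was 0.591 and 0.470 in KO-labelled libraries and 0.485 and 0.472 in Het-labelled libraries, which overlap too.

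A wider list of 29 genes whose products act on clock proteins gave the same count. Of these, 0 rose and 0 fell (edgeR; 0 also by DESeq2, limma-voom and limma-trend), against 2.54% of all genes tested. An unadjusted p under 0.05 was found for 2 of the 29, or 6.9%, against 16.9% of all genes tested. The fold change was above 1 in 12 and below 1 in 17, against 7670 and 6979 of all genes, and its median was -0.01 on the log2 scale, against 0.02 over all genes. By role, the 10 kinase genes ranged from -0.27 to 0.62, the 4 phosphatase genes from -0.30 to -0.14, the 13 ligase genes from -0.21 to 0.81 and the deubiquitinase genes Usp9x and Usp7 stood at -0.36 and 0.27 on the log2 scale. Siah2, Usp9x and Ppp5c were among the genes with the smallest p-values. Siah2, a ligase gene for REV-ERBα, was at 102 and 71.3 CPM in KO-labelled libraries and 36.5 and 62.4 CPM in Het-labelled libraries (log2 fold change 0.81, SE 0.29, edgeR adjusted p = 0.215), with wide spread inside both groups. Ppp5c, a phosphatase gene whose product acts on casein kinase 1ε, was at 79.4 and 98.3 CPM in KO-labelled libraries and 111 and 108 CPM in Het-labelled libraries (-0.30, adjusted p = 0.403).

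**Figure D4:**
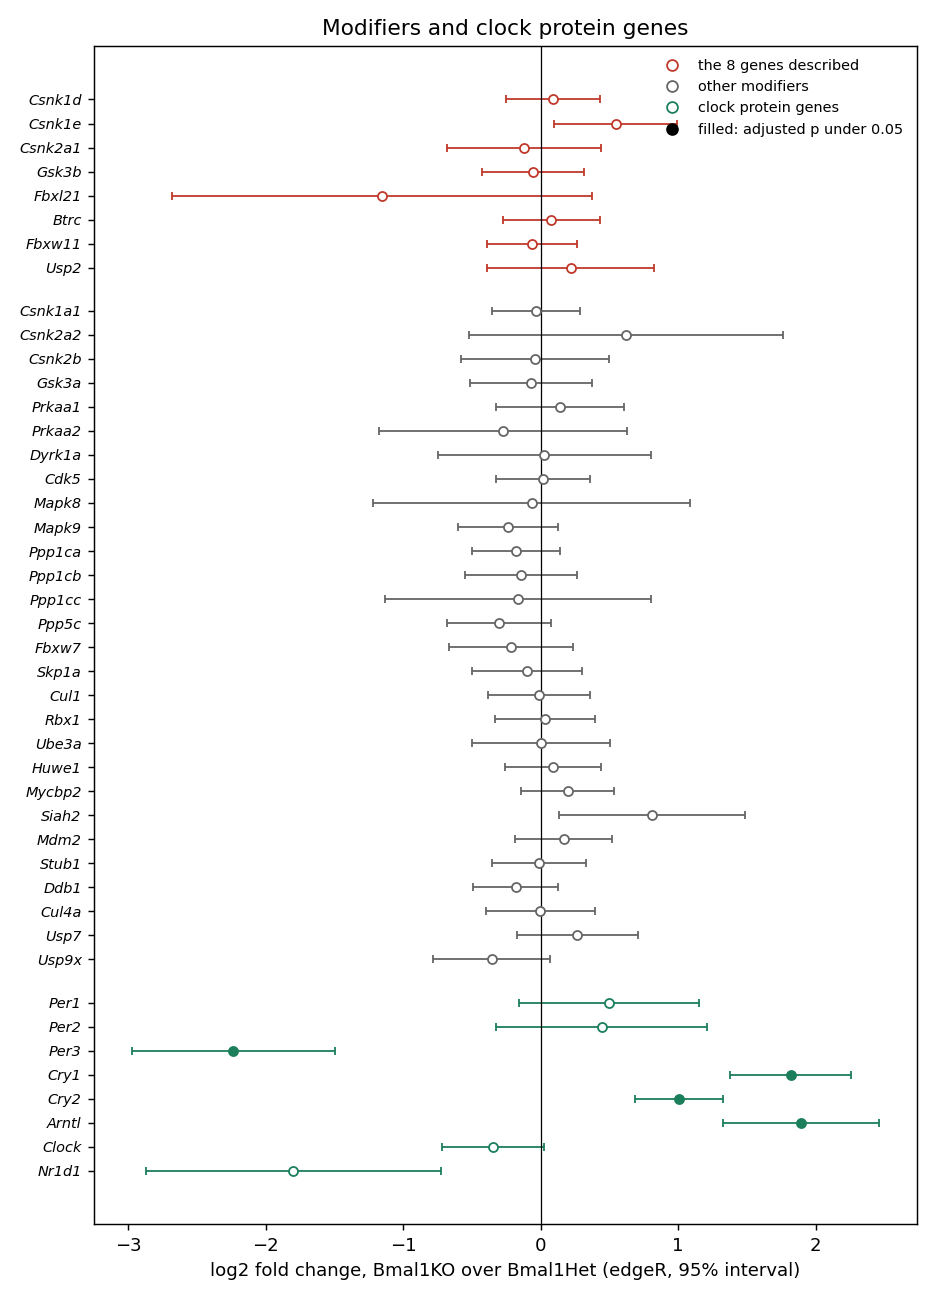
Log2 fold change of libraries labelled Bmal1KO over those labelled Bmal1Het (horizontal axis) with 95% intervals, for the 8 genes (red), other modifier genes (grey) and 8 clock protein genes (green); filled points passed an adjusted p of 0.05. No red or grey point is filled, and 4 green ones are.

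Genes of the clock proteins on which these enzymes act moved more. Of 8 such genes, Cry1 (log2 fold change 1.82), Cry2 (1.01) and Arntl (1.89) rose and Per3 (-2.24) fell (edgeR adjusted p from 0.0129 to 0.0195), while 4 did not pass; 1 passed without Het-labelled replicate 2 and 2 without Het-labelled replicate 1. The median size of the change without its sign was 1.40 over these 8 genes, 0.14 over the 29 modifier genes and 0.11 over the 8 enzyme genes described here. No test was made of that difference. The clock protein genes include Arntl, the targeted gene itself, and the lists were chosen with earlier results of these data known. Over all genes, 372 passed, or 25 without Het-labelled replicate 2.

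**Figure D5:**
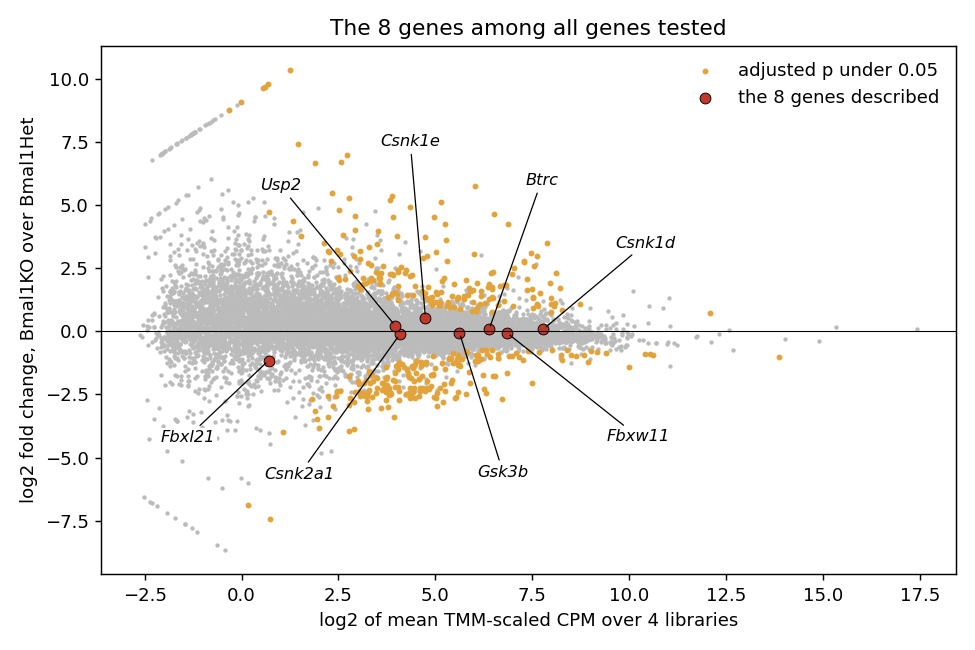
Log2 fold change of libraries labelled Bmal1KO over those labelled Bmal1Het against the log2 mean CPM of 14649 genes (grey), with the 372 past the threshold in orange and the 8 genes in red. All 8 lie in the grey cloud, 7 of them near 0 and Fbxl21 at the low end of expression at -1.16.

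Promoter windows were read from a RefSeq table (GRCm38.p6, 250 bases before to 50 after an annotated start), which held 6 of the 8 genes, not Csnk1d and Btrc. They are shown for Fbxl21, the gene with the largest difference, and Usp2, the one best known for rhythmic RNA, with the GC box GGGCGG in capitals. The start used for Usp2 is an internal one, 17.9 kb downstream of the outermost 5′ end in GENCODE, and the starts used for Csnk1e lie 13.4 to 13.7 kb downstream of its outermost 5′ end. For these genes, windows at the outermost start were not searched. The starts of the other 4 genes lie within 169 bases of the GENCODE 5′ end.
Fbxl21 promoter, chr13:56522222-56522521, plus strand: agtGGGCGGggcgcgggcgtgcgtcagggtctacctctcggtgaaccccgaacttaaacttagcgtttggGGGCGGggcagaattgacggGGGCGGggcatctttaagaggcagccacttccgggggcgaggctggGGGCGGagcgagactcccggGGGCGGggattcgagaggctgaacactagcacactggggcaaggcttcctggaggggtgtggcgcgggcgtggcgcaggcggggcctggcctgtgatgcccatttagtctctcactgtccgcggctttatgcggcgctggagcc
Usp2 internal promoter, chr9:44084670-44084969, plus strand: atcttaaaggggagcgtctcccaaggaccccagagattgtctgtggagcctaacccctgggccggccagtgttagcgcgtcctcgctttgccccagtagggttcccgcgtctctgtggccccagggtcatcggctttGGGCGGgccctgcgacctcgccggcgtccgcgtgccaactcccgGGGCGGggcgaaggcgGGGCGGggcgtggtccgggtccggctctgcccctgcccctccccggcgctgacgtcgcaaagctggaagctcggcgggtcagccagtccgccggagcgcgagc

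Both windows were rich in G and C, at 67.7% for Fbxl21 and 71.7% for Usp2, with 27 and 33 CpG dinucleotides. On both strands, the window of each of the 6 genes was searched for CACGTG, the E-box to which BMAL1 and CLOCK bind, CACGTT, a related E-box form, and AGGTCA, the half-site of REV-ERB and ROR receptors. None of the 6 held any of these 3 motifs, so there were no overlapping matches. Among all 27025 genes in the table, 8.09% held CACGTG, 5.44% CACGTT and 18.1% AGGTCA. Of 7 clock protein genes with a window, 2 held CACGTG (Per1 and Cry1), 3 CACGTT (Cry1, Cry2 and Nr1d1) and 3 AGGTCA (Per1, Arntl and Clock). The GC box, searched after the sequences had been read, was present in 4 of the 6 genes (Csnk1e, Csnk2a1, Fbxl21 and Usp2), with 5 matches for Fbxl21 and 3 for Usp2, and in 38.2% of all genes. A match or its absence describes only the letters in these windows, not other promoters of the same gene.

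Genes with the most similar pattern were sought among 8900 genes with a mean of 10 CPM or more, as the Euclidean distance of centred log2 CPM over the 4 libraries. For Fbxl21 these were Nt5dc3 (distance 0.0542), at 10.2 and 10.2 CPM in KO-labelled libraries and 23.6 and 19.6 CPM in Het-labelled libraries, and Slc25a35 (0.087). For Csnk1e they were Zfp775 (0.0398), at 14.6 and 15.5 CPM in KO-labelled libraries and 9.55 and 11.2 CPM in Het-labelled libraries, and Armcx6 (0.0432). Genes within a distance of 0.1 made up 0.0225% of the candidates for Fbxl21 and 0.169% for Csnk1e, but 2.36% for Fbxw11 and 2.35% for Gsk3b, whose flat patterns are common. The nearest genes were Arhgef16 for Csnk1d, Zbtb22 and Hsf1 for Csnk2a1, Plekhm1 and H2-Ke6 for Gsk3b, Urod and Zcchc9 for Btrc, Smg9 and Vapa for Fbxw11, and Zfp438 and Rc3h2 for Usp2. With 4 libraries, many genes can lie close by the values alone.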

How the data were processed

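Libraries were made with the SMART-Seq v4 low-input kit from total RNA of an RNeasy Plus Micro preparation, per the labels' protocols. The authors deposited raw read counts per gene symbol, used for all main tests, and a table of scaled values, treated as a signal; per the submitters' processing notes STAR, edgeR and mm10 were used, with no version. The labels used here do not name the counting tool, strand setting and annotation. Dividing the deposited scaled values by 1 constant per library, read against the counts, gave whole reads for 100% of values at a tolerance of 0.01. Since the constant came from the counts, edgeR on those reads repeated the main fit (372 genes called) and is no separate check.

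After filterByExpr (at least 10 counts, total of at least 15) and TMM scaling, the groups were compared 2-sided in edgeR 4.0.16 (R 4.3.3), all 4 libraries entering a model without covariates. Residual degrees of freedom were 2 and prior ones 5.12. Intervals are the log2 fold change plus or minus its SE times the t quantile. All 8 genes passed the filter. CPM values are TMM-scaled, with mean and SD over n = 2. Exon lengths and coordinates are from GENCODE M21 (GRCm38, the build of mm10). The code was run on counts simulated with the dispersions of these data, as a check that called changes had the right sign. The simulation held no differences in cell type or sex between libraries. Replicates of a group differed by more than sampling noise (chi-square per degree of freedom 63.9 for the KO label and 42.9 for the Het label). The text names all 8 genes, the genes of both wider lists that passed or else the 4 with the smallest p, the partners in ratios and the 2 nearest genes by pattern. Members, lists and motifs were chosen with earlier results of these data known. Alternatives used DESeq2 1.42.0 and limma 3.58.1, other scalings and filters, a replicate block and leaving out each library. Protein sequences were not used here, and a few genes that these rules name are not reported here.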

Additional observations from a re-analysis of the deposited data

How the results depend on the processing

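No alternative brought any of the 8 genes or the 29 other modifier genes past the threshold. Csnk1e (0.40 to 0.63), Fbxl21 (-1.32 to -0.15), Gsk3b (-0.12 to -0.007), Fbxw11 (-0.13 to -0.02) and Usp2 (0.001 to 0.38) kept the direction of their log2 fold change under every alternative run. Fbxl21 gave no value with a filter at a mean of 5 CPM, and its value nearest 0 came with a pseudocount of 10 on the deposited scaled values, which shrinks scarce genes by construction. Leaving out each library turned the sign of Csnk1d (-0.034 to 0.177), Csnk2a1 (-0.263 to 0.012) and Btrc (-0.06 to 0.178), all near 0. The 372 calls over all genes became 808 with no filter, 1181 with DESeq2, 591 with the replicate block, 728 at an adjusted p under 0.1 and 25 to 826 when each library was left out; except for the looser threshold, the cause was not tested. The clock protein genes past the threshold numbered 1 to 4 when each library was left out. Whether the replicate numbers pair the samples is not settled. Deviations of same-numbered libraries correlated at -0.019 across genes, which gives no sign of pairing but cannot exclude it. The replicate block called 0 of the 8 genes, as every other setting did, so that count does not bear on pairing. For Fbxl21, at 32 to 96 counts a library, the interval of the fit, which includes the spread between libraries, ran from a fold of 0.156 to 1.29, while counting error alone gave 0.328 to 0.595.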
